A study of Arabidopsis thaliana with 10 samples.

Results

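Camalexin and the indole glucosinolates are defence compounds that Arabidopsis makes from tryptophan, and 9 genes of these routes were followed in leaves across 5 genotypes. The genes were taken by locus from the 33602 rows of the deposited count table: CYP79B2, CYP79B3, CYP83B1, CYP71A12, CYP71A13, GSTF6, PAD3, MYB34 and MYB51. All 9 were found, and all 9 passed the filter on low counts that left 20334 genes for testing. They were chosen by name and role, with earlier results of these data known.

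In these routes CYP79B2 and CYP79B3, a pair of cytochrome P450 enzymes, turn tryptophan into indole-3-acetaldoxime. CYP83B1 sends this intermediate towards indole glucosinolates, whereas CYP71A12 and CYP71A13 turn it into indole-3-acetonitrile. From the nitrile, a glutathione conjugate is formed, a step in which the glutathione transferase GSTF6 has been implicated, and PAD3 (CYP71B15) carries out the last step to camalexin, the main phytoalexin of the species. MYB34 and MYB51 are related transcription factors that activate indole glucosinolate genes. In leaves, indole glucosinolates are made in the absence of attack, while camalexin synthesis is known for its induction by pathogens.

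RNA came from leaves of untreated 4-week-old plants grown on soil. The groups were wild type Col-0, the mutant pnet2_ab, and 3 lines in which a 35S promoter, active in most tissues, drives NTL6-SRDX, NTL9-SRDX or NTL12-SRDX in the pnet2_ab background. The 3 lines therefore share the pnet2_ab mutation with their control, and each NTL protein, a NAC transcription factor tethered to membranes, is here joined to the SRDX repression domain. The 10 libraries formed 5 groups of 2, while the series text speaks of triplicates. The second NTL12 library is titled NTL12 but carries the genotype entry NTL2, and was kept under its title. The labels do not say whether replicates were separate plants, nor whether a line stands for more than 1 transformant, so p-values speak for the spread among these libraries alone, which may be technical.

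Library totals ran from 22638465 to 28345856 counts. Replicates differed by more than counting noise, and no pair held the same values (chi-square over its degrees of freedom, 6 to 9.49). Of 3 PNET2 family genes, AT1G28760 was higher in pnet2_ab than in wild type (log2 fold change ± SE 1.92 ± 0.20, edgeR adjusted p = 9.2e-08), while AT3G49840 (-0.76 ± 0.26, 0.027) and AT5G67610 (-0.94 ± 0.17, 0.00013) were lower. None was at 0 in pnet2_ab, and the labels do not say which loci are PNET2 A and B. The leaf label was met by 5 photosynthesis genes, whose summed level was 70400 to 75600 CPM, counts scaled to library size, in wild type, 44000 to 45100 CPM in pnet2_ab and 49200 to 61900 CPM in the lines. The 6 floral markers summed to 2.65 to 2.81 CPM in wild type, 9.13 to 13 in pnet2_ab and 5.02 to 7.96 in the lines. Outside wild type, most of that sum was SEP3, at 0.931 CPM in wild type, 6.91 in pnet2_ab and 3.57 to 6.61 in the lines (genotype means), the 1 floral marker of 6 called higher in pnet2_ab (2.90 ± 0.32, adjusted p = 2.4e-07). Means were also higher in pnet2_ab, without a call, for AP3 (1.25 CPM against 0.226 in wild type) and PI (0.893 against 0.189). The same held for SEP1 (0.77 against 0.428) and SEP2 (0.742 against 0.134). At an unadjusted p under 0.05, 2 of the 6 were higher. AG alone had a lower mean, at 0.821 CPM in wild type and 0.505 in pnet2_ab (adjusted p = 0.53). SEP2 was at 0 in both NTL12 libraries. These 2 marker sums moved with genotype, and their part in the results given next was not tested. In whole leaves, fewer cells of a type and less RNA per cell cannot be told apart.

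The sequences of CYP71A12 and CYP71A13 are shown because these neighbouring genes on chromosome 2 had different patterns across the genotypes. Their coding sequences, from RefSeq on TAIR10.1, are 1494 bases each and identical at 90.4% of positions, with a longest identical run of 59 bases. The first 90 coding bases, with the 12 that differ in capitals, show how far apart the differences lie.
CYP71A12: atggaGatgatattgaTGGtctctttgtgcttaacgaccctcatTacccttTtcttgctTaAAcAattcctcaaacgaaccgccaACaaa
CYP71A13: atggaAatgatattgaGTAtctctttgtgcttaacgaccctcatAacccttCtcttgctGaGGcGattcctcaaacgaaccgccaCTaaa

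How reads shared by both copies were counted is not given in the sources used here, and the counts of the pair carry that uncertainty. GSTF6 and GSTF7 are closer still, at 94.7% with an identical run of 116 bases. CYP79B2 and CYP79B3 share 81.2% of aligned bases and MYB34 and MYB51 share 73.7%.

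The 250 bases before the start of each gene, taken as the more upstream of the authors' and the RefSeq start (RefSeq genome, TAIR10.1, minus strand, written 5′ to 3′ on the gene's strand) lie at chr2:13101414-13101663 for CYP71A12 and chr2:13112012-13112261 for CYP71A13. Capitals mark the runs of at least 12 bases present in both, 40 bases in all.
CYP71A12: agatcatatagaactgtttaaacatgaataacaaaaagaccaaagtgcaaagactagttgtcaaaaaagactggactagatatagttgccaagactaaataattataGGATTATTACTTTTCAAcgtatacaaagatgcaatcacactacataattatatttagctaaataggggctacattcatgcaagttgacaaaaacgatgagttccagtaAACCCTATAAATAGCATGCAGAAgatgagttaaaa
CYP71A13: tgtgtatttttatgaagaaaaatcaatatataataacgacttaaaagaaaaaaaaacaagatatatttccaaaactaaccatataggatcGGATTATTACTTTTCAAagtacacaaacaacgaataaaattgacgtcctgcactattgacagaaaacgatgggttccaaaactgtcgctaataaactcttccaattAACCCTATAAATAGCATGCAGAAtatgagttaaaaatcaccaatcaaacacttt

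In pnet2_ab the camalexin genes CYP71A12, PAD3 and GSTF6 were 7.64 to 12.3 times their wild-type level. CYP79B2 of the shared entry step and CYP83B1 were higher by 1.38 and 1.26 times, while CYP79B3 was lower by 1.22 times. CYP71A13, of the same route, did not pass the test in pnet2_ab (0.26 ± 0.34 on the log2 scale, adjusted p = 0.6). In all 3 SRDX lines PAD3 and GSTF6 fell from their pnet2_ab level. CYP71A13 differed between the lines, being higher than in pnet2_ab in the NTL6 line and lower in the other 2. MYB51 was up in pnet2_ab, down again in the NTL6 and NTL9 lines, and not down in the NTL12 line. Changes were tested with edgeR's quasi-likelihood test on all 10 libraries, with Benjamini-Hochberg adjustment over 20334 genes and a threshold of 0.05, and are given as log2 fold change ± SE (n = 2 per genotype).

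Against wild type, 6 of the 9 genes were higher and 2 lower in pnet2_ab, where 34% of all tested genes changed, 17.2% being higher and 16.8% lower. Against pnet2_ab, 1 was higher and 4 were lower in the NTL6 line, where 18.1% of all tested genes changed (8.75% higher, 9.35% lower). In the NTL9 line none was higher and 5 were lower, with 22.3% of all tested genes changed (11.6% higher, 10.8% lower). In the NTL12 line none was higher and 3 were lower, with 6.95% changed (3.11% higher, 3.84% lower). The counts of genes higher in these 2 lines were also 0 at an unadjusted p under 0.05 and with DESeq2 and limma. The median log2 fold change of the 9 was 0.46 in pnet2_ab against wild type, 0.03 for NTL6-SRDX, -0.86 for NTL9-SRDX and -0.21 for NTL12-SRDX, each line against pnet2_ab. The median over all tested genes lay between -0.011 and 0.035 in these 4 comparisons. The 3 lines are set against the same 2 pnet2_ab libraries, so their fold changes share the error of those libraries.

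**Figure D1:**
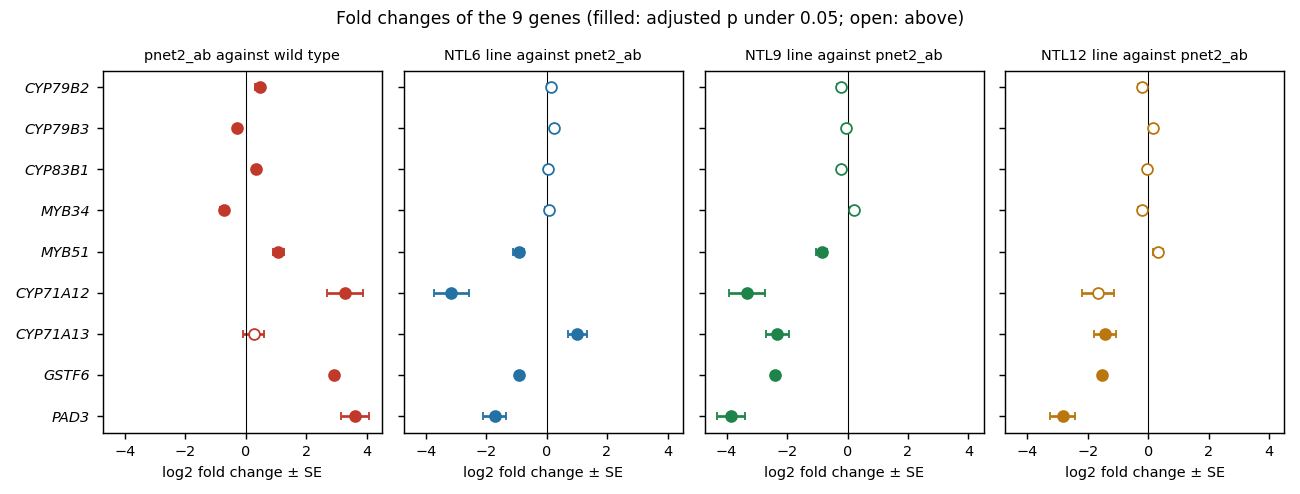
Log2 fold change ± SE (horizontal axis) of the 9 genes (rows) in pnet2_ab against wild type and in each SRDX line against pnet2_ab, with filled points for an adjusted p under 0.05. PAD3 and GSTF6 lie right of 0 in the first panel (3.62 and 2.93) and left of it in the other panels, and CYP71A13 lies right of 0 in the NTL6 panel (1.02) and left of it in the NTL9 and NTL12 panels (-2.32 and -1.44).

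**Figure D2:**
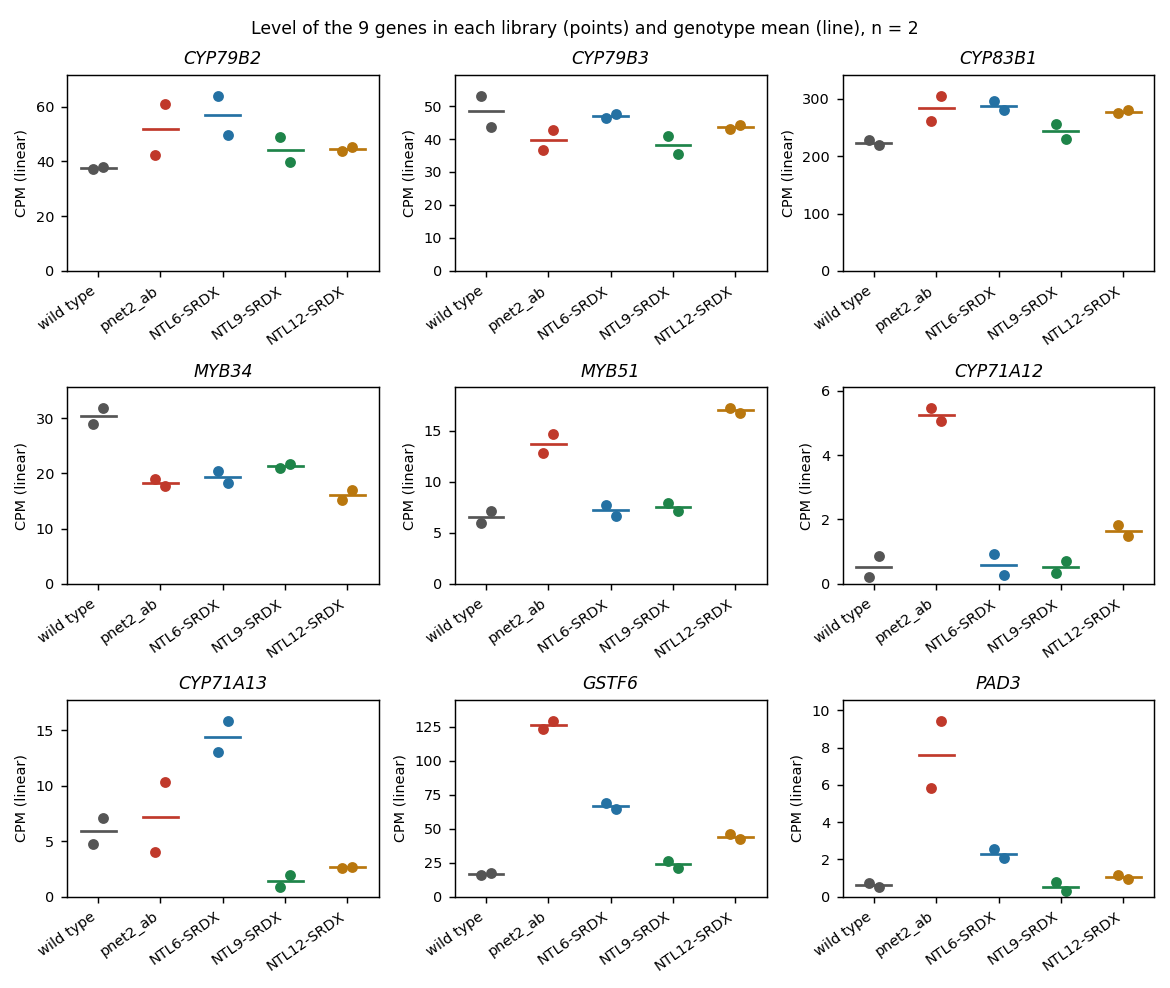
CPM (linear axis from 0) of each gene in each library, as points, with the genotype mean as a line (n = 2). The 2 pnet2_ab libraries of GSTF6, at 123 and 129 CPM, lie above all other libraries, and the 2 wild-type libraries of MYB34, at 29 and 31.8 CPM, lie above all others.

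Among the entry enzymes, CYP79B2 (AT4G39950, TAIR10 chr4:18525246-18527579) had 37.1 and 37.8 CPM in wild-type leaves, 42.3 and 61 in the pnet2_ab mutant, 64 and 49.7 with NTL6-SRDX, 48.8 and 39.7 with NTL9-SRDX and 43.9 and 45.3 with NTL12-SRDX. Every mutant-background library lay above both wild-type ones, and the second pnet2_ab library was well above the first. The rise in pnet2_ab was 0.46 ± 0.14 (adjusted p = 0.015). It missed the threshold without the second pnet2_ab library (0.18, adjusted p = 0.39), without the first (0.44, 0.078) or the second wild-type library (0.46, 0.067). The NTL6 line was also above wild type (0.60 ± 0.14, adjusted p = 0.0032), which fell short without its first library (0.41, adjusted p = 0.096). In no line did CYP79B2 differ from pnet2_ab past the threshold (adjusted p = 0.55, 0.3 and 0.44 in the NTL6, NTL9 and NTL12 lines), although without the first pnet2_ab library the NTL9 line was lower (-0.46, adjusted p = 0.018) and without the second the NTL6 line was higher (0.43, adjusted p = 0.046).

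CYP79B3 (AT2G22330, chr2:9488554-9491187), which catalyses the same step, had 53.2 and 43.6 CPM in wild-type leaves, 36.7 and 42.7 in the pnet2_ab mutant, 46.3 and 47.6 with NTL6-SRDX, 40.8 and 35.5 with NTL9-SRDX and 43.1 and 44.2 with NTL12-SRDX. Here wild type had the highest genotype mean, and both pnet2_ab libraries lay under the lower wild-type one. These CPM rest on library totals multiplied by TMM factors. The factors were 0.884 and 0.907 in wild type and 1.08 and 1.07 in pnet2_ab. The order of these genotypes for CYP79B3, and the size of small folds between them, depend on that scaling. The fall in pnet2_ab was small, -0.29 ± 0.11 (adjusted p = 0.048). It fell short without the first wild-type library (-0.15, adjusted p = 0.42), without the first pnet2_ab library (-0.18, 0.35), and without any 1 NTL6 or NTL12 library (adjusted p = 0.057 to 0.061). The NTL9 line was lower than wild type by a similar amount (-0.34 ± 0.11, adjusted p = 0.043), a call also lost without the first wild-type library (-0.20, 0.38), the second NTL9 library (-0.25, 0.27) or any 1 NTL6 or NTL12 library (0.054 to 0.059). None of the lines differed from pnet2_ab past the threshold. The genotype means of CYP79B2 spanned 0.59 on the log2 scale and those of CYP79B3 0.34.

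CYP83B1 (AT4G31500, chr4:15273471-15275310), the first enzyme committed to indole glucosinolates, was the most abundant of the 9 genes per length. It had 229 and 219 CPM in wild-type leaves, 261 and 306 in the pnet2_ab mutant, 297 and 280 with NTL6-SRDX, 256 and 231 with NTL9-SRDX and 275 and 281 with NTL12-SRDX. All 8 libraries of the mutant background lay above both wild-type libraries. In pnet2_ab it was higher by 0.34 ± 0.08 (adjusted p = 0.0019; 0.22 and 0.064 without the second pnet2_ab library). The NTL6 line was higher than wild type by 0.37 ± 0.08 (adjusted p = 0.0016). The NTL12 line exceeded wild type by 0.31 ± 0.08 (adjusted p = 0.0044; 0.26 and 0.065 without the second wild-type library). The NTL9 line lay between, at 0.12 ± 0.08 above wild type (adjusted p = 0.36) and under pnet2_ab (-0.22 ± 0.08, adjusted p = 0.051). That last difference passed the threshold without the first pnet2_ab library (-0.33, adjusted p = 0.0074), without the first NTL9 library (-0.28, 0.037), with no filter on low counts (0.023) and with DESeq2 (0.035).

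The MYB regulators moved in opposite directions in pnet2_ab. MYB34 (AT5G60890, chr5:24494691-24496351) had 29 and 31.8 CPM in wild-type leaves, 19 and 17.7 in the pnet2_ab mutant, 20.5 and 18.3 with NTL6-SRDX, 21 and 21.8 with NTL9-SRDX and 15.1 and 17 with NTL12-SRDX. Wild type stood above every other library with no overlap. The fall in pnet2_ab was -0.73 ± 0.13 (adjusted p = 9.1e-05), and no line differed from pnet2_ab past the threshold. The NTL6, NTL9 and NTL12 lines stayed below wild type at -0.65 ± 0.13 (adjusted p = 0.00052), -0.51 ± 0.13 (0.0088) and -0.92 ± 0.13 (7.1e-06). The NTL9 value missed the threshold when the second wild-type library (-0.45, adjusted p = 0.085) or the first NTL9 library (-0.48, 0.081) was left out. Between the lines, MYB34 was higher in the NTL9 than in the NTL12 line (0.42 ± 0.13, adjusted p = 0.028). That call did not hold when any 1 of their 4 libraries was left out (0.34 to 0.50, adjusted p = 0.053 to 0.21).

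MYB51 (AT1G18570, chr1:6389411-6391267) had 5.95 and 7.13 CPM in wild-type leaves, 12.8 and 14.7 in the pnet2_ab mutant, 7.73 and 6.67 with NTL6-SRDX, 7.94 and 7.15 with NTL9-SRDX and 17.2 and 16.8 with NTL12-SRDX. The libraries fell on a high and a low level, the high one in pnet2_ab and the NTL12 line and the low one in wild type and the other 2 lines, with no library between. It rose by 1.07 ± 0.18 in pnet2_ab (adjusted p = 5.2e-05) and fell from there in the NTL6 (-0.93 ± 0.17, 0.00048) and NTL9 lines (-0.86 ± 0.17, 0.00068). The NTL12 line was 0.31 ± 0.16 above pnet2_ab (adjusted p = 0.31) and 1.38 ± 0.17 above wild type (adjusted p = 2.5e-06). The difference between lines was itself tested, and MYB51 was lower in the NTL6 than in the NTL12 line (-1.24 ± 0.17, adjusted p = 2e-05) and lower in the NTL9 than in the NTL12 line (-1.17 ± 0.17, 4.6e-05). MYB122, the third MYB factor of this group, had at most 0.2 CPM in any library and was not tested.

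CYP71A12 and CYP71A13, which form indole-3-acetonitrile, moved apart in pnet2_ab against wild type and in the NTL6 line. Both had lower means than pnet2_ab in the NTL9 and NTL12 lines. The difference between the 2 genes was not tested. CYP71A12 (AT2G30750, chr2:13099336-13101413) had 0.2 and 0.847 CPM in wild type, from 4 and 19 counts, and 5.45 and 5.05 CPM in pnet2_ab, from 167 and 124 counts. It had 0.912 and 0.268 CPM with NTL6-SRDX, 0.34 and 0.699 with NTL9-SRDX and 1.82 and 1.48 with NTL12-SRDX. The pnet2_ab libraries stood apart at the top, the NTL12 libraries followed, and wild type, the NTL6 line and the NTL9 line overlapped. It rose by 3.29 ± 0.60 in pnet2_ab (adjusted p = 0.00015) and fell in the NTL6 (-3.15 ± 0.58, 0.00046) and NTL9 lines (-3.32 ± 0.59, 0.00022). The rise in pnet2_ab was 2.61 without the first wild-type library and 4.67 without the second, the NTL6 value was -4.265 without the first NTL6 library and -2.52 without the second, and the NTL9 value was -3.93 without the second NTL9 library, each still past the threshold.

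In the NTL12 line the difference of CYP71A12 from pnet2_ab was -1.67 ± 0.52 with adjusted p = 0.058. The same fold passed the threshold with no filter on low counts (adjusted p = 0.0041), in a fit of these 2 groups alone (0.0031) and without any 1 library of the 3 other genotypes (0.028 to 0.039). The NTL12 line was above wild type by 1.62 ± 0.61 (adjusted p = 0.048), which was 3.0 without the second wild-type library and was lost without the first (0.95, adjusted p = 0.31), the first (1.46, 0.17) or second NTL12 library (1.76, 0.088), or either pnet2_ab library (0.071 and 0.062). Alternative scalings put this adjusted p at 0.05 and 0.051.

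CYP71A13 (AT2G30770, chr2:13109794-13112011) had 4.75 and 7.04 CPM in wild-type leaves, 3.98 and 10.3 in the pnet2_ab mutant, 13 and 15.8 with NTL6-SRDX, 0.849 and 1.97 with NTL9-SRDX and 2.58 and 2.66 with NTL12-SRDX. The NTL6 libraries were the highest, the NTL9 and NTL12 libraries the lowest, and the 2 pnet2_ab libraries lay on either side of wild type. In pnet2_ab the change was 0.26 ± 0.34 (adjusted p = 0.6), and it was -0.57 (adjusted p = 0.23) without the second pnet2_ab library. The NTL9 line was below pnet2_ab (-2.32 ± 0.39, adjusted p = 0.00012) and below wild type (-2.06 ± 0.40, 0.0011). Against pnet2_ab this was -1.49 without the second pnet2_ab library and -3.05 without the second NTL9 library, and against wild type -2.80 without the second NTL9 library, each still past the threshold.

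The other 2 lines rest on the wide pnet2_ab pair. CYP71A13 in the NTL6 line was above pnet2_ab by 1.02 ± 0.33 (adjusted p = 0.033), which was 1.85 without the second pnet2_ab library and was lost without the first (0.47, adjusted p = 0.36), the first (1.15, 0.061) or the second NTL6 library (0.87, 0.19). In the NTL12 line it was below pnet2_ab (-1.44 ± 0.36, adjusted p = 0.016), which was lost without the second pnet2_ab library (-0.60, 0.4), the first (-1.41, 0.14) or the second NTL12 library (-1.46, 0.11). Against wild type, the NTL6 line was higher by 1.28 ± 0.33 (adjusted p = 0.0071; 0.099 without the first wild-type and 0.059 without the second NTL6 library). The NTL12 line was lower than wild type by a like amount (-1.17 ± 0.37, 0.018; 0.18 when the second wild-type library was omitted, 0.094 and 0.085 without the first and second NTL12 library). Set directly against each other, the NTL6 line exceeded the NTL9 line by 3.34 ± 0.39 (adjusted p = 7.4e-06) and the NTL12 line by 2.45 ± 0.36 (3.7e-05), and these calls held without any 1 library, the first being 4.07 without the second NTL9 library.

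**Figure D3:**
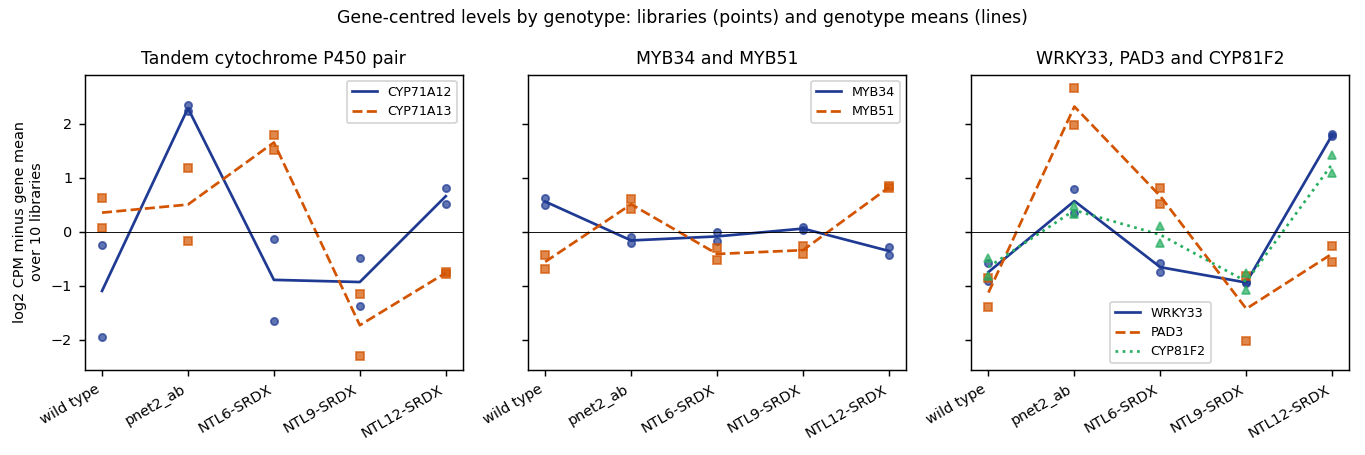
Log2 CPM minus the gene's mean over the 10 libraries (vertical axis) by genotype, with libraries as points and genotype means joined by lines, for CYP71A12 and CYP71A13, for MYB34 and MYB51, and for WRKY33, PAD3 and CYP81F2. CYP71A12 peaks in pnet2_ab and CYP71A13 in the NTL6 line, MYB34 and MYB51 run opposite in wild type, pnet2_ab and the NTL12 line, and WRKY33 is highest in the NTL12 line (92.2 and 95.3 CPM), where PAD3 is at 1.18 and 0.942 CPM.

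GSTF6 (AT1G02930, chr1:661177-662456) was separated by genotype throughout. It had 15.7 and 17.3 CPM in wild-type leaves, 123 and 129 in the pnet2_ab mutant, 69.2 and 64.5 with NTL6-SRDX, 26.4 and 21.2 with NTL9-SRDX and 46 and 42.1 with NTL12-SRDX. No 2 genotypes overlapped, and the order was pnet2_ab, NTL6, NTL12, NTL9 and wild type. It rose by 2.93 ± 0.11 in pnet2_ab (adjusted p = 1.3e-14) and fell from there with NTL6-SRDX (-0.91 ± 0.10, 5.9e-07), NTL9-SRDX (-2.41 ± 0.10, 8.2e-13) and NTL12-SRDX (-1.52 ± 0.10, 7.3e-09). Each step of the order passed the test. The smallest was the NTL9 line against wild type (0.53 ± 0.11, adjusted p = 0.0027), which was lost without the first NTL9 library (0.36, adjusted p = 0.088). Between the lines the differences were 1.49 ± 0.10 for NTL6 against NTL9 (adjusted p = 3.7e-09), 0.60 ± 0.10 for NTL6 against NTL12 (0.00015) and -0.89 ± 0.10 for NTL9 against NTL12 (3.1e-06).

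Its near-identical neighbour GSTF7 (AT1G02920) had 9.8 and 12.1 CPM in wild-type leaves, 46.8 and 54.9 in the pnet2_ab mutant, 45.7 and 42.3 with NTL6-SRDX, 20.2 and 19.6 with NTL9-SRDX and 26.9 and 23.5 with NTL12-SRDX. It too was up in pnet2_ab (2.21 ± 0.13, adjusted p = 3.2e-11) and down in the NTL9 (-1.35 ± 0.12, 4.6e-08) and NTL12 lines (-1.01 ± 0.12, 1.4e-05). In the NTL6 line, where GSTF6 was lower, GSTF7 was at -0.21 ± 0.12 against pnet2_ab (adjusted p = 0.24). The difference between the copies was not tested, and shared reads could move counts from one to the other.

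PAD3 (AT3G26830, chr3:9887948-9889705) had 0.75 and 0.49 CPM in wild-type leaves, 5.84 and 9.41 in the pnet2_ab mutant, 2.54 and 2.07 with NTL6-SRDX, 0.764 and 0.288 with NTL9-SRDX and 1.18 and 0.942 with NTL12-SRDX. The pnet2_ab libraries lay above all others, the NTL6 libraries came next, and the NTL9 line overlapped wild type. Counts were low in wild type, at 15 and 11, against 179 and 231 in pnet2_ab. PAD3 rose by 3.62 ± 0.46 in pnet2_ab (adjusted p = 1.8e-06) and fell with NTL6-SRDX (-1.72 ± 0.39, 0.0032), NTL9-SRDX (-3.85 ± 0.46, 2.1e-06) and NTL12-SRDX (-2.84 ± 0.42, 0.00016). Without the second pnet2_ab library the NTL6 value was -1.34 with adjusted p = 0.098, and without the first NTL9 library the NTL9 value was -4.69. The NTL6 line remained above wild type (1.89 ± 0.47, adjusted p = 0.0047; 0.061 without the second wild-type library). The NTL9 line was at -0.23 ± 0.54 (0.84) and the NTL12 line at 0.78 ± 0.50 (0.26) against wild type. The NTL6 line exceeded the NTL9 line by 2.13 ± 0.47 (adjusted p = 0.0068), which was 2.97 without the first NTL9 library and was lost without the first NTL6 (1.97, 0.059) or the second NTL9 library (1.58, 0.14).

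Set against wild type, 5 of the 9 genes were higher and 1 lower in the NTL6 line, where 10.9% and 12.6% of all tested genes were (23.5% in either direction). In the NTL9 line 1 was higher, GSTF6, and 3 were lower, CYP79B3, CYP71A13 and MYB34, against 6.29% and 7.43% of all tested genes (13.7% together). In the NTL12 line 4 were higher and 2 lower, against 14.9% and 15.6% (30.5% together). Between lines, 3 genes were higher and none lower in the NTL6 than in the NTL9 line (1.95% and 4.1% of all tested genes, 6.05% together), namely CYP71A13, PAD3 and GSTF6. The 0 lower held at an unadjusted p under 0.05 and with DESeq2 and limma. The NTL6 line against the NTL12 line gave 2 higher, CYP71A13 and GSTF6, and 1 lower, MYB51 (8.99% and 8.45%, 17.4% together). The NTL9 line against the NTL12 line gave 1 higher, MYB34, and 2 lower, GSTF6 and MYB51 (9.22% and 7.07%, 16.3% together).

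The order of genotype means thus differed by gene. For CYP71A12 pnet2_ab (5.25 ± 0.279 CPM, mean ± SD) came first, and no pair of neighbours in the order differed past the threshold. PAD3 had pnet2_ab first (7.63 ± 2.53 CPM), which differed from the NTL6 line, and no later step passed the test. In the order of CYP71A13 the NTL6 line (14.4 ± 1.98 CPM) differed from pnet2_ab and wild type from the NTL12 line, while pnet2_ab and wild type did not differ past the threshold (adjusted p = 0.6), nor did the NTL12 and NTL9 lines (0.17). MYB51 had 1 step, between pnet2_ab and the NTL9 line (0.00068), and MYB34 had 1, between wild type and the NTL9 line (0.0088). For CYP79B2, CYP79B3 and CYP83B1 no step between neighbours passed the threshold. The genotype means spanned 3.75 on the log2 scale for PAD3, 3.38 for CYP71A12 and CYP71A13, 2.93 for GSTF6, 1.37 for MYB51 and 0.92 for MYB34, against 0.36 for CYP83B1.

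Levels of different genes were compared in the authors' FPKM, fragment counts scaled by gene length and library size. In wild type, CYP83B1 was at 128 and 123 FPKM, CYP79B3 at 27.6 and 22.6, MYB34 at 20.9 and 22.9, CYP79B2 at 18.2 and 18.6 and GSTF6 at 14.2 and 15.6. MYB51 had 3.51 and 4.21 FPKM there and CYP71A13 2.84 and 4.22. PAD3 at 0.441 and 0.289 and CYP71A12 at 0.116 and 0.491 FPKM were the lowest.

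In pnet2_ab, GSTF6 reached 112 and 117 FPKM, still under CYP83B1 at 146 and 171 FPKM. CYP71A12, at 3.16 and 2.92 FPKM, came within the range of CYP71A13, at 2.38 and 6.19, whereas in wild type CYP71A13 exceeded it in each library. In the NTL6 line CYP71A13 had 7.73 and 9.39 FPKM against 0.526 and 0.155 for CYP71A12. In the NTL12 line they were at 1.54 and 1.59 against 1.05 and 0.85 FPKM. MYB34 exceeded MYB51 in each of the 10 libraries. They were far apart in wild type, at 20.9 and 22.9 against 3.51 and 4.21 FPKM, and nearest in the NTL12 line, at 10.8 and 12.1 against 10.2 and 9.84 FPKM.

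**Figure D4:**
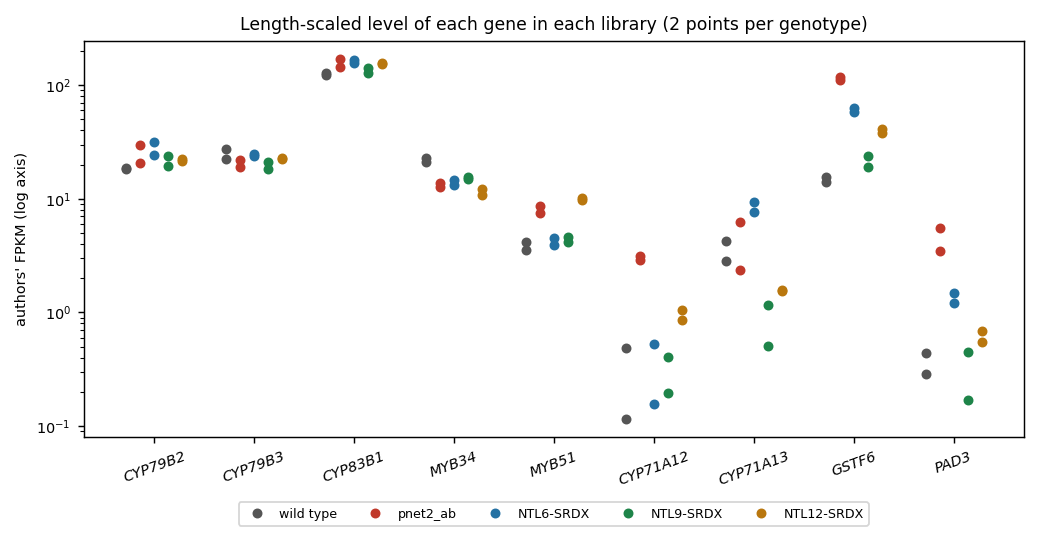
Authors' FPKM (log axis) of the 9 genes in each library, 2 points per genotype. CYP83B1 is between 123 and 171 FPKM in all 10 libraries, and PAD3 runs from 0.168 FPKM in an NTL9 library to 5.53 FPKM in a pnet2_ab library.

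Of 52 other genes of the tryptophan-derived pathways, 49 were tested, and their lists were drawn up with earlier results of these data known. In pnet2_ab 18 were higher and 8 lower than in wild type, where 17.2% and 16.8% of all tested genes were, with a median log2 fold change of 0.15 (0.035 over all tested genes). Against pnet2_ab, 12 were higher and 8 lower with NTL6-SRDX (median -0.01; 8.75% and 9.35% of all tested genes), 9 and 14 with NTL9-SRDX (-0.15; 11.6% and 10.8%), and 8 and 6 with NTL12-SRDX (0.04; 3.11% and 3.84%). MYB122, ERF1 and CYP71A18 were not tested, and CYP71A18, a paralog of CYP71A12, was at 0 in every library. Without the second wild-type library the count higher in pnet2_ab was 11 instead of 18, and without the first pnet2_ab or the second NTL6 library the count lower in the NTL6 line was 5.

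The 6 core enzymes that complete indole glucosinolates after CYP83B1, and serve other glucosinolates too, were all higher in the NTL6 line than in pnet2_ab (median 0.54). Of all tested genes, 8.75% were higher there. In pnet2_ab itself none was higher and 2 were lower than in wild type (median -0.02), against 17.2% and 16.8% of all tested genes. At an unadjusted p under 0.05, 1 was higher, GSTF10, which DESeq2 also called (0.16, adjusted p = 0.037), as did limma (0.17, 0.046). GGP1, a gamma-glutamyl peptidase, had 144 and 141 CPM in wild-type leaves, 114 and 106 in the pnet2_ab mutant, 191 and 188 with NTL6-SRDX, 162 and 143 with NTL9-SRDX and 139 and 143 with NTL12-SRDX. The pnet2_ab libraries were the lowest and the NTL6 libraries the highest, with no overlap with any other genotype. GGP1 fell in pnet2_ab (-0.37 ± 0.08, adjusted p = 0.00053) and was above pnet2_ab by 0.78 ± 0.08 (1.8e-07), 0.47 ± 0.08 (7.6e-05) and 0.36 ± 0.08 (0.0048) in the NTL6, NTL9 and NTL12 lines. The NTL12 value missed the threshold without the second pnet2_ab (0.30, 0.063) or the second NTL12 library (0.34, 0.059).

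UGT74B1, the glucosyltransferase of the core, was at -0.34 ± 0.09 in pnet2_ab (adjusted p = 0.005; 0.098 without the first pnet2_ab library) and 0.59 ± 0.09 (5.2e-05), 0.50 ± 0.09 (0.00025) and 0.49 ± 0.09 (0.0014) in the 3 lines. GSTF10, a glutathione transferase, was higher by 0.59 ± 0.07 (1.7e-06), 0.26 ± 0.07 (0.0071) and 0.24 ± 0.07 (0.035) in the NTL6, NTL9 and NTL12 lines. For GSTF10 the NTL9 call was lost without the first pnet2_ab library (0.22, 0.069) and the NTL12 call without any 1 pnet2_ab, NTL6 or NTL12 library (adjusted p = 0.056 to 0.22). In all, 3 of the 6 were higher in the NTL9 line and 3 in the NTL12 line (11.6% and 3.11% of all tested genes). None was lower in any line (9.35%, 10.8% and 3.84% of all tested genes for NTL6, NTL9 and NTL12).

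Of 9 tested enzymes that decorate the indole ring, 5 were higher in pnet2_ab and none lower (median 0.98), against 17.2% and 16.8% of all tested genes. At an unadjusted p under 0.05, 1 was lower, IGMT5. IGMT1, a methyltransferase that acts after CYP81F2, had 3.95 and 4.95 CPM in wild-type leaves, 13.5 and 10.9 in the pnet2_ab mutant, 4.88 and 4.41 with NTL6-SRDX, 5.98 and 5.75 with NTL9-SRDX and 12.9 and 15.9 with NTL12-SRDX. As with MYB51, pnet2_ab and the NTL12 line formed a high level that did not overlap the rest. It rose by 1.45 ± 0.20 in pnet2_ab (adjusted p = 7.6e-06), fell in the NTL6 (-1.39 ± 0.20, 3.1e-05) and NTL9 lines (-1.05 ± 0.20, 0.00037), and was at 0.24 ± 0.19 in the NTL12 line against pnet2_ab (0.54). The NTL6 and NTL9 lines were below the NTL12 line (-1.63 ± 0.20, 4.9e-06, and -1.29 ± 0.20, 7.6e-05).

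IGMT2 and IGMT3, its near copies, were lower in the NTL6 line (-1.42, adjusted p = 0.019, and -1.66, 0.0076), with no library of either above 5.35 CPM. Their adjusted p was 0.12 and 0.077 without the first pnet2_ab library and 0.14 and 0.091 without the second NTL6 library, and that of IGMT2 was 0.062 without the first NTL6 library. CYP81F2, which hydroxylates the ring, had 1.75 and 2.23 CPM in wild-type leaves, 4.4 and 3.95 in the pnet2_ab mutant, 2.7 and 3.37 with NTL6-SRDX, 1.82 and 1.44 with NTL9-SRDX and 6.79 and 8.48 with NTL12-SRDX. The NTL12 libraries were the highest and the NTL9 libraries near wild type. CYP81F2 rose by 1.07 ± 0.30 in pnet2_ab (adjusted p = 0.0089; 0.077 without the first wild-type and 0.053 without the first pnet2_ab library). It fell in the NTL9 line (-1.36 ± 0.31, 0.0022), and was at -0.46 ± 0.29 (0.3) in the NTL6 and 0.87 ± 0.28 (0.065) in the NTL12 line against pnet2_ab.

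The NTL12 value of CYP81F2 passed with no low-count filter (adjusted p = 0.041) and in a fit of the 2 groups alone (0.034). Against wild type CYP81F2 was higher by 1.93 ± 0.30 in the NTL12 line (adjusted p = 3.4e-05). Of the 9 ring genes, 3 were lower and none higher in the NTL6 line (9.35% and 8.75% of all tested genes). In the NTL9 line 4 were lower and 1 higher (10.8% and 11.6%). The higher gene was IGMT4 (0.20 ± 0.07, adjusted p = 0.046), a call lost without any 1 library other than the wild-type ones. In the NTL12 line none was lower and 1, IGMT4, was higher (0.50 ± 0.07, adjusted p = 7.8e-05), against 3.84% and 3.11% of all tested genes. At an unadjusted p under 0.05, 2 were lower there. CYP81F4 had mean levels of 2.25 CPM in pnet2_ab and 0.634 CPM in the NTL12 line. IGMT5, which methylates another ring position, was at -0.36 ± 0.12 there (0.067).

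A list of 4 genes joined FOX1 and CYP82C2, of the indole-3-carbonyl nitrile branch, with CYP71B6 and AAO1. This branch is a defence route related to camalexin. Of the 4 genes, 3 were higher in pnet2_ab, where 17.2% of all tested genes were. AAO1, an aldehyde oxidase, had 7.65 and 11.8 CPM in wild-type leaves, 43.6 and 40.8 in the pnet2_ab mutant, 23.6 and 21.1 with NTL6-SRDX, 18.9 and 15.7 with NTL9-SRDX and 18.9 and 19.8 with NTL12-SRDX. Its lines lay between wild type and pnet2_ab without overlapping either. AAO1 rose by 2.11 ± 0.16 (adjusted p = 1.2e-09) and was lower than pnet2_ab in the NTL6 (-0.92 ± 0.15, 0.00011), NTL9 (-1.29 ± 0.15, 1.7e-06) and NTL12 lines (-1.13 ± 0.15, 4.4e-05).

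FOX1, an oxidase of this branch, had 0.35 and 0.0892 CPM in wild-type leaves, 2.54 and 2.53 in the pnet2_ab mutant, 0.872 and 0.575 with NTL6-SRDX, 0.17 and 0.986 with NTL9-SRDX and 0.531 and 0.287 with NTL12-SRDX. Only pnet2_ab exceeded 1 CPM. It rose by 3.53 ± 0.83 (adjusted p = 0.002) and fell in the NTL9 (-2.12 ± 0.72, 0.039) and NTL12 lines (-2.61 ± 0.75, 0.036). In the NTL6 line it was at -1.80 ± 0.70 (0.082), which passed in a fit of the 2 groups alone (0.019) and with no filter on low counts (0.046). The NTL9 call was lost without either pnet2_ab library (0.14 and 0.12) or the first NTL9 library (-1.35, 0.3), and the NTL12 call without any 1 of the 4 libraries (0.12 to 0.25).

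CYP82C2, the hydroxylase of the branch, had 18 counts over both pnet2_ab libraries, 55 over both NTL12 libraries and 0 in all libraries of wild type, the NTL6 line and the NTL9 line. With 3 counts over a group as the upper limit of a 0, the observed pnet2_ab level was 4.61 times that limit in wild type. It was 5.58 times the limit in the NTL6 line and 5.21 times that in the NTL9 line. The observed NTL12 level was 15.3, 18.5 and 17.3 times the limits in wild type, the NTL6 line and the NTL9 line. The limits cover the counting error of the 0 only, and that of the 18 and 55 counts was left out. These fold values are therefore not lower bounds. Adjusted p was 0.031 in pnet2_ab against wild type, 0.038 and 0.036 for the NTL6 and NTL9 lines against pnet2_ab, and 0.33 for the NTL12 line against pnet2_ab (0.359 and 0.285 against 1.06 and 1.11 CPM). Each of the first 3 calls was lost when any 1 library of the 2 groups compared or of the NTL12 line was left out (0.062 to 0.19), and with no filter on low counts (0.054 to 0.062). The median of the 4 listed genes, AAO1 and CYP71B6 among them, was 2.82 in pnet2_ab as fitted. It was 2.16 with CYP82C2 set to its 4.61-fold value. As fitted, the median was -1.36 in the NTL6 line, 2 of 4 genes being lower. It was -1.70 in the NTL9 line, 3 being lower, and -0.69 in the NTL12 line, 2 being lower. Of all tested genes, 9.35%, 10.8% and 3.84% were lower in these lines.

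Of 10 tested regulators 5 were higher and 1 lower in pnet2_ab (median 0.34), against 17.2% and 16.8% of all tested genes. WRKY33, which activates camalexin genes such as PAD3 and CYP71A13 after infection, had 17.9 and 14.4 CPM in wild-type leaves, 34.4 and 46.6 in the pnet2_ab mutant, 18 and 16.2 with NTL6-SRDX, 14 and 14.1 with NTL9-SRDX and 92.2 and 95.3 with NTL12-SRDX. The NTL12 libraries stood above all others, and the NTL6 and NTL9 lines were near wild type. It was below pnet2_ab in the NTL6 (-1.24 ± 0.13, adjusted p = 6.2e-07) and NTL9 lines (-1.53 ± 0.13, 3.6e-08) and above it by 1.21 ± 0.12 in the NTL12 line (2.6e-06). In that NTL12 line PAD3, CYP71A13 and GSTF6 were lower than in pnet2_ab, as given with their values and limits. GSTF6 stayed above wild type there (1.42 ± 0.11, adjusted p = 2.3e-09). Means of MYB51 (17 against 13.7 CPM) and CYP81F2 (7.63 against 4.18 CPM) were above pnet2_ab, without a call in the main fit. A link of these levels to WRKY33 was not tested. MYC2, a bHLH factor of jasmonate signalling, was also higher in the NTL12 line (0.96 ± 0.13, 4.1e-05).

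MYC4, a bHLH partner of the glucosinolate MYB factors, had 21.7 and 15.6 CPM in wild-type leaves, 10.9 and 10.6 in the pnet2_ab mutant, 19.4 and 14.3 with NTL6-SRDX, 21.8 and 18.9 with NTL9-SRDX and 12.9 and 17 with NTL12-SRDX. The pnet2_ab libraries were the lowest. It fell in pnet2_ab (-0.79 ± 0.18, adjusted p = 0.0018; 0.056 without the first wild-type library) and was higher in the NTL6 (0.65 ± 0.18, 0.015; 0.24 without the first NTL6 and 0.061 without the second pnet2_ab library) and NTL9 lines (0.92 ± 0.18, 0.00061). The kinase genes MPK3 (0.57 ± 0.10, 0.00013) and CPK6 (0.85 ± 0.17, 0.00045) were higher in pnet2_ab. ERF72, an ethylene response factor, was lower in the NTL6 (-0.90 ± 0.09, 5.3e-07) and NTL9 lines (-0.67 ± 0.09, 1.5e-05). In all, 1 of 10 tested regulators was higher and 2 were lower with NTL6-SRDX (8.75% and 9.35% of all tested genes). With NTL9-SRDX 1 was higher and 3 were lower (11.6% and 10.8%). With NTL12-SRDX 2 were higher and none lower (3.11% and 3.84%), while 1 was lower at an unadjusted p under 0.05.

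Breakdown and transport genes were mixed, with 3 of 8 higher and 3 lower in pnet2_ab (median 0.20), against 17.2% and 16.8% of all tested genes. TGG2, a myrosinase of leaves, had 945 and 1100 CPM in wild-type leaves, 676 and 722 in the pnet2_ab mutant, 1150 and 1110 with NTL6-SRDX, 1230 and 900 with NTL9-SRDX and 1640 and 1660 with NTL12-SRDX. Its pnet2_ab libraries were the lowest and its NTL12 libraries the highest. TGG2 fell in pnet2_ab (-0.55 ± 0.10, adjusted p = 0.00014) and was above it by 0.69 ± 0.10 (2.8e-05), 0.61 ± 0.10 (8.3e-05) and 1.24 ± 0.10 (1.9e-07) in the NTL6, NTL9 and NTL12 lines. The glucosinolate transporter gene GTR2 was higher in pnet2_ab (0.99 ± 0.08, 7.2e-09), as was PEN3, an exporter of the plasma membrane (0.83 ± 0.07, 7.7e-09). PEN2, the myrosinase of pathogen entry defence, was higher by 0.21 ± 0.08 (0.044), a call lost without any 1 of the 10 libraries save the first pnet2_ab one (0.053 to 0.47).

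PYK10, a beta-glucosidase, was lower than pnet2_ab in the NTL6 (-1.51 ± 0.23, adjusted p = 7.1e-05) and NTL12 lines (-1.46 ± 0.23, 0.00035). In the breakdown and transport list 3 were higher and 1 lower with NTL6-SRDX (8.75% and 9.35% of all tested genes). With NTL9-SRDX 3 were higher and 3 lower (11.6% and 10.8%), and with NTL12-SRDX 2 and 2 (3.11% and 3.84%). Of 11 tryptophan synthesis genes, 1 was higher and 2 were lower in pnet2_ab (median -0.13), where 17.2% and 16.8% of all tested genes were. TSB1, a tryptophan synthase subunit, fell in pnet2_ab (-0.51 ± 0.08, adjusted p = 2.6e-05) and was higher than pnet2_ab in the NTL6 (0.42 ± 0.08, 0.00062) and NTL9 lines (0.28 ± 0.08, 0.012; 0.072 without the first pnet2_ab and 0.19 without the second NTL9 library). Of the 11, 2 were higher in the NTL6 line (8.75% of all tested genes) and 1 in the NTL9 line (11.6%). In the NTL12 line 1, TSA1, was lower (-0.49 ± 0.09, adjusted p = 0.0016), against 3.84% of all tested genes.

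**Figure D5:**
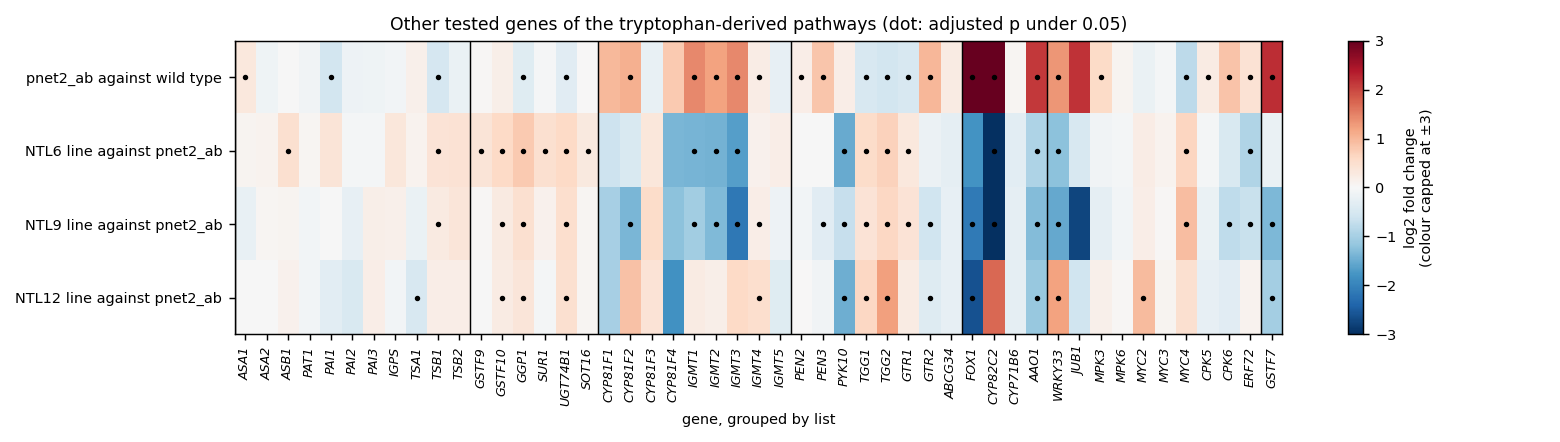
Log2 fold change (colour, capped at ±3) of the 49 other tested pathway genes (columns, grouped by list) in pnet2_ab against wild type and in each line against pnet2_ab (rows), with a dot for an adjusted p under 0.05. The 6 core enzymes, GSTF9 to SOT16, are all dotted in the NTL6 row (median 0.54), and WRKY33 is lower in the NTL6 and NTL9 rows and higher in the NTL12 row (-1.24, -1.53 and 1.21).

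For the 5 genes whose genotype means spanned at least 1 log2 unit, the 3 genes with the nearest profile were found among tested genes of at least 5 CPM on average. The measure was the root mean square difference of gene-centred log2 CPM over the 10 libraries, which share the genotype structure. For GSTF6 these were EXT3, a cell-wall extensin (0.18), MBP2, a myrosinase-binding protein (0.21), and CRK6, a receptor-like kinase (0.26). MYB51 had AT3G52800 (0.13), AT3G56880 (0.13) and AT2G30020 (0.14).

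Profiles of the low-count genes were less closely matched. CYP71A12 was nearest to AT2G18690 (0.55), the transporter gene ABCG1 (0.63) and the NAC factor gene NAC047 (0.64). PAD3 was nearest to AT5G10760, WRKY60 and ARCK1, each at 0.53. CYP71A13 had ORG1 (0.43), PYE, a bHLH factor of the iron deficiency response (0.57), and AT5G05250 (0.59). No gene was shared between these 5 sets. Among the 9 genes themselves, PAD3 and GSTF6 differed by 0.57 on this measure, CYP79B2 and CYP83B1 by 0.14, MYB34 and MYB51 by 0.82, and CYP71A12 and CYP71A13 by 1.79, the widest of the 36 pairs. Genes that change little lie close on this measure, and the genotype means of CYP79B2 and CYP83B1 spanned only 0.59 and 0.36 log2 units.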

How the data were processed

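Strand-specific mRNA sequencing of leaf RNA gave 10 libraries, 2 for each of 5 genotypes. The gene counts were deposited by the authors as raw counts per gene of TAIR10, and the FPKM values were computed by the authors from these libraries and deposited beside them. HISAT2 2.0.4, HTSeq 0.6.1p1 and TAIR10 are named in the submitters' processing notes, with no role. The counting mode, its strand setting and the treatment of shared reads are not given in the sources used here, so near copies such as CYP71A12 and CYP71A13, or GSTF6 and GSTF7, may exchange counts.

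The 9 genes, the pathway lists and the tests were chosen with earlier results of these data known. From the deposited counts, genes passing the filterByExpr filter by genotype were scaled by TMM and fitted in edgeR 4.0.16 (R 4.3.3) with 1 coefficient per genotype over all 10 libraries, without a replicate block. Quasi-likelihood tests were adjusted by the Benjamini-Hochberg method over 20334 genes, with a threshold of 0.05. The standard error is the log2 fold change divided by the square root of F. CPM use TMM-scaled library sizes, and 3 counts in a library correspond to 0.0978 to 0.15 CPM, which covers counting error only. The procedure was tested on simulated data first.

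Genes outside the 9 were picked by rule. In each of the 4 main comparisons these were up to 3 genes of lowest adjusted p in a list. WRKY33, MYB122, CYP81F2, FOX1, CYP82C2, PEN2 and GSTF7 were always included. Not every gene so picked is named in the text, and those named are not given for every comparison. The named genes are therefore not a full listing. Alternatives were RLE and upper-quartile scaling, no low-count filter, DESeq2 1.42.0, a fit of only the 2 groups compared, limma 3.58.1 on log2(FPKM + 1) of the authors' values, a replicate block, and leaving out each library. As the FPKM follow the TMM-scaled library sizes, the limma alternative is no separate check of the scaling. Sequences come from RefSeq on TAIR10.1. A marker list and an upstream window are not reported here. All 33323 nuclear genes of the authors' TAIR10 coordinates lay within its chromosomes, and of 32835 matched by locus 32712 had both ends within 2000 bases.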

Additional observations from a re-analysis of the deposited data

How the results depend on the processing

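Of the calls of the 9 genes, those kept under every alternative numbered 5 of 8 for pnet2_ab against wild type, 3 of 5, 5 of 5 and 2 of 3 for the NTL6, NTL9 and NTL12 lines against pnet2_ab, 3 of 6, 1 of 4 and 3 of 6 for these lines against wild type, and 2 of 3 (NTL6 against NTL9), 3 of 3 (NTL6 against NTL12) and 2 of 3 (NTL9 against NTL12) between lines. With 2 libraries a genotype, a genotype left with 1 library is assumed to vary like the others. Over all settings, 1409 member fold changes kept direction and side of the threshold, 61 lost and 35 gained a call, and 25 changed sign, none of these last called in either fit. The cause was not tested.

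Libraries with the same replicate number did not deviate together over the tested genes (correlation of deviations -0.04 to 0.03). This does not show whether they were prepared together. With the number as a replicate block, members lower in pnet2_ab fell to 1, as CYP79B3 lost its call, and CYP79B3 (NTL9 line against wild type) and CYP71A12 (NTL12 line against wild type) lost theirs. That count was also 1 with DESeq2, with only the 2 groups compared and with limma. With limma, members higher in the NTL6 line than in pnet2_ab were 0, members lower in the NTL12 line than in wild type 1, and the log2 fold change of CYP71A12, NTL9 line against wild type, 0.006. All tested genes called, NTL6 line against NTL9 line, were then 738 in place of 1230. With no filter, members higher in the NTL6 line were 5 against the NTL9 line and 4 against the NTL12 line, and members lower were 2 for NTL6 against NTL12 and 4 for NTL9 against NTL12.

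Leaving out 1 library gave these ranges. For pnet2_ab against wild type, members lower were 1 to 2, other pathway genes higher 11 to 17, and CYP71A13 -0.571 to 0.806. For the NTL6 line against pnet2_ab, members higher were 0 to 2, other pathway genes lower 5 to 9, all genes called 2183 to 3744, CYP79B2 -0.102 to 0.426, CYP83B1 -0.086 to 0.148 and MYB34 -0.007 to 0.155. For the NTL9 line against pnet2_ab, CYP79B2 was -0.465 to 0.063 and CYP79B3 -0.161 to 0.059. For the NTL12 line against pnet2_ab, all genes called were 560 to 1557, CYP79B2 -0.453 to 0.074 and CYP83B1 -0.140 to 0.093. For the NTL6 line against wild type, all genes called were 3189 to 4917, CYP79B3 -0.197 to 0.091, CYP71A12 -0.979 to 1.515 and MYB51 -0.001 to 0.257. For the NTL9 line against wild type, members higher were 0 to 1, all genes called 1445 to 2960, CYP71A12 -0.701 to 1.352 and PAD3 -1.087 to 0.299. For the NTL12 line against wild type, members lower were 1 to 2. Between the NTL6 and NTL9 lines, members higher were 2 to 4, all genes called 482 to 1414, CYP71A12 -0.944 to 0.802 and MYB51 -0.178 to 0.035. Between the NTL6 and NTL12 lines, members higher were 2 to 3, members lower 1 to 2 and all genes called 2189 to 3737. Between the NTL9 and NTL12 lines, members higher were 0 to 1, members lower 2 to 3, all genes called 1975 to 3527 and CYP79B2 -0.160 to 0.131.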
